A study of Mus musculus with 12 samples.

Results

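The 9 genes described here encode enzymes that make phosphatidylcholine or renew its acyl chains. They were taken by their symbols from the 34745 genes of the deposited expression table. They are the choline kinases Chka and Chkb, the CTP:phosphocholine cytidylyl-transferase Pcyt1a, the final transferases Cept1 and Chpt1, the methyltransferase Pemt, the phosphatase Phospho1 and the lysophosphatidylcholine acyltransferases Lpcat1 and Lpcat2. All 9 symbols were found once each, and all 9 passed the filter on low counts in every comparison. Pcyt1a and Phospho1 were also picked by the study from these libraries for RT-qPCR, so their direction between the QJSB and model groups is not independent evidence.

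Phosphatidylcholine is the main phospholipid of animal cell membranes, and every dividing or differentiating marrow cell has to make it. In the CDP-choline route choline is phosphorylated, activated with CTP and joined to diacylglycerol. A methylation route, known mostly from the liver, starts from phosphatidylethanolamine, and the remodeling cycle removes acyl chains and adds new ones to the lysophospholipid. In inflammatory leucocytes the remodeling enzymes also make platelet activating factor.

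Total bone marrow cells of the femur were taken from male ICR mice, an outbred strain, that weighed 18 to 22 g, and each of the 4 groups held 3 mice. Normal mice had saline only. Model mice had saline by mouth for 1 week and, on days 5 to 7, a daily intraperitoneal dose of 80 mg/kg of cyclophosphamide, an alkylating drug toxic to proliferating cells. For QJSB mice a daily oral dose of 3 g/kg of Qi-Jing-Sheng-Bai granule, a herbal preparation, took the place of the saline, and for leucogen mice 20 mg/kg of leucogen, which is given against low leucocyte counts. All 3 groups other than normal therefore carried cyclophosphamide, and no group had a drug without it. RNA was sequenced after removal of ribosomal RNA, 1 library for each mouse. The columns of the table are headed Blank, Model, Stilbene and Positive. Stilbene was read as QJSB, Blank as normal and Positive as leucogen, by meaning and elimination. The study lists 1 mean for each gene of a comparison, and it was set against the mean normalized count over the libraries of both groups together. These were within 1% of each other in 298 of 300 genes for model against normal and in 300 of 300 for each drug against model.

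Library totals ran from 11172547 to 18545198 counts, and libraries of the same group differed by 10.9 to 107 times the counting variance, so all 12 were kept as separate samples. Levels are given as CPM, counts scaled to library size with TMM factors, and as FPKM where genes are compared per length. A gene was called where edgeR's quasi-likelihood test gave a Benjamini-Hochberg adjusted p under 0.05 and the absolute log2 fold change exceeded the study's cutoff of 1.5-fold. Cell type markers differed strongly between the groups. The summed level of 7 erythroid markers was 10000 to 11200 CPM in normal and 60.9 to 510 CPM in the 9 other libraries, and 7 B cell markers went from 1560 to 1590 CPM down to 8.11 to 94.1 CPM. The sum of 8 late neutrophil markers was 9910 to 10400 CPM in normal, 1990 to 6190 in model, 3240 to 18200 in QJSB and 14100 to 18100 in leucogen, and that of 5 promyelocyte markers was 740 to 951, 6600 to 9480, 8130 to 8970 and 3450 to 4560 CPM in the same order. Model 1 and QJSB 1 stood apart from the other libraries of their groups, with the lowest late neutrophil sums (1994 and 3238 CPM) and the highest osteoblast sums (410.5 and 519.8 CPM, against 134.1 to 143.8 CPM in the other libraries of these groups). In such bulk samples fewer cells of a type and less RNA per cell cannot be told apart.

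Per length, the acyltransferases and Cept1 had the highest levels and Pemt the lowest. In normal marrow Lpcat1 was at 22.6 ± 7.20 FPKM (SD, n = 3), Cept1 at 16.9 ± 1.96, Lpcat2 at 11.3 ± 0.570 and Pcyt1a at 7.32 ± 2.36. Below them came Phospho1 at 3.55 ± 0.192, Chkb at 3.19 ± 0.226, Chka at 2.73 ± 0.0554, Chpt1 at 1.07 ± 0.354 and Pemt at 0.262 ± 0.0921 FPKM. Only the neighbours Lpcat1 and Cept1, and Phospho1 and Chkb, overlapped in this order of the normal libraries. In model, Phospho1 was at the end of the order with 0.661 ± 0.0651 FPKM, overlapping Pemt at 0.693 ± 0.190. In leucogen Chka, at 5.97 ± 0.837 FPKM, stood above Pcyt1a at 5.39 ± 2.27, although the libraries of these genes overlapped.

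**Figure D1:**
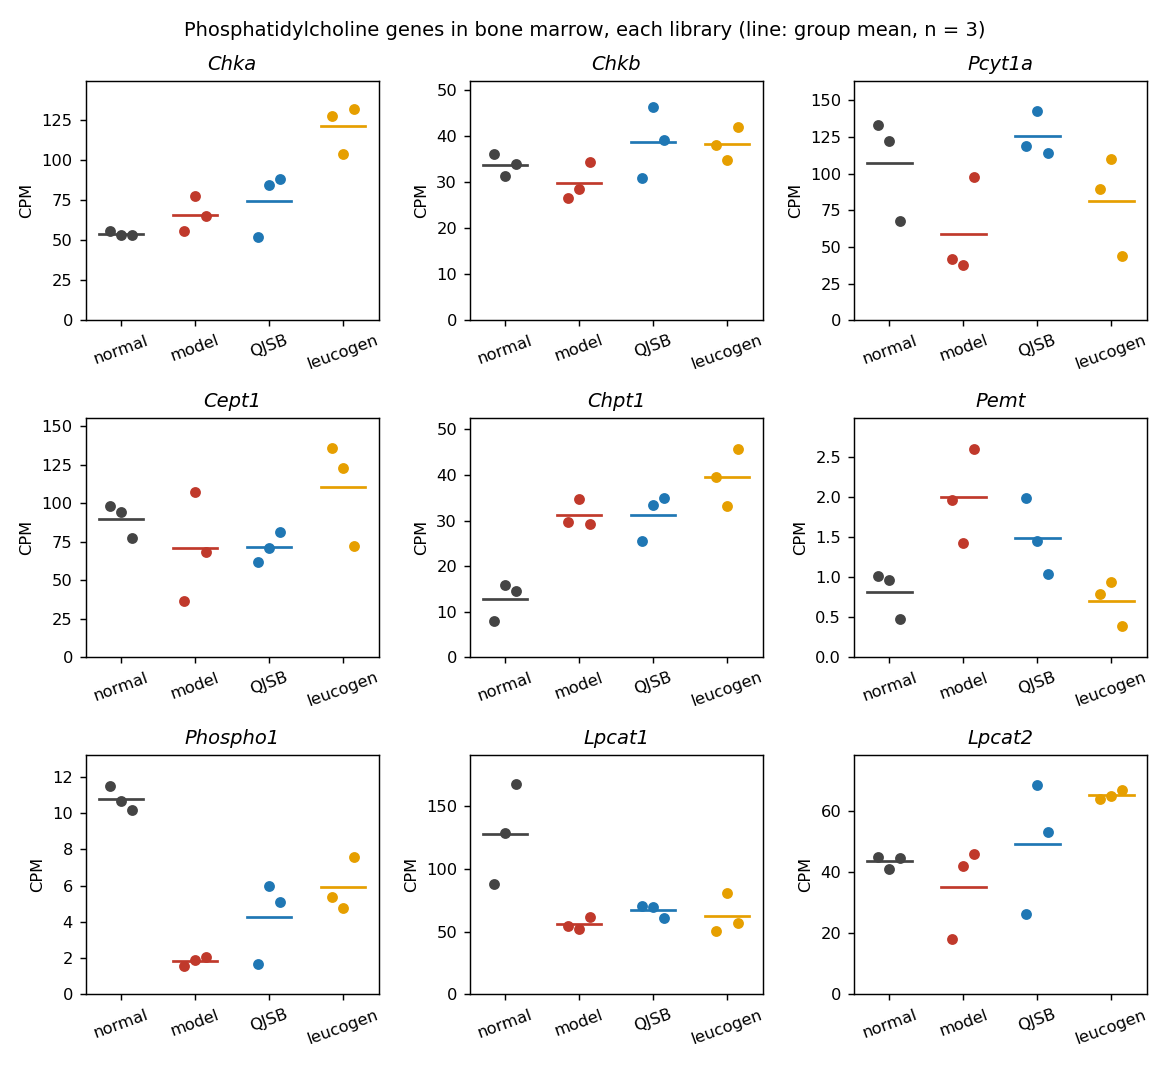
CPM of each gene (y axis, from 0) in the 12 libraries, by group (x axis), where each point is 1 mouse and each line the mean of 3. Phospho1 and Lpcat1 were highest in normal, Chpt1 was lowest there, and Chka was highest in the 3 leucogen libraries.

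Cyclophosphamide changed 4 of the 9 genes, and in both directions. In model against normal, Chpt1 and Pemt rose and Phospho1 and Lpcat1 fell. Over all 14752 genes tested 35.1% were called, so 4 of 9 stands close to the background. The median log2 fold change of the 9 was -0.30, against 0.02 for all genes. Leucogen against model called 3 of 9, with Chka and Phospho1 higher and Pemt lower, where 23.1% of all genes were called, and the median of the 9 was 0.47 against -0.05. QJSB against model called 0 of 9, where 0% of 14486 genes were called by edgeR. An unadjusted p under 0.05 was found for 723 of these 14486 genes, 2 of them among the 9 members. Where no gene differs, such a cutoff passes about as many genes as the 723. In that comparison DESeq2 called 8 genes and the fit with the replicate number as a block called 18, with no member among either. The drug comparisons use the same 3 model libraries, so they are not independent of each other or of the comparison of model with normal.

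**Figure D2:**
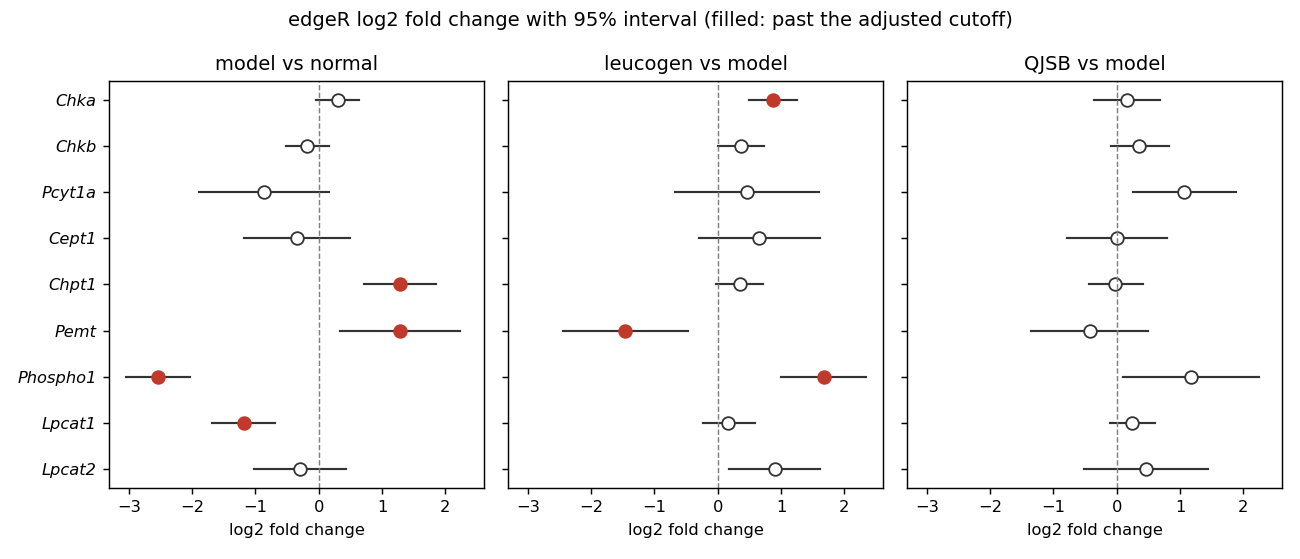
Log2 fold change of the 9 genes (x axis) with its 95% interval from edgeR, in model against normal, leucogen against model and QJSB against model. Filled points passed the adjusted cutoff: 4 in the left panel, 3 in the middle panel and 0 in the right panel, where Pcyt1a (1.07) and Phospho1 (1.18) lay farthest from 0.

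The choline kinases take the initial step, the phosphorylation of choline. Chka was called in 3 comparisons and Chkb in none, and the difference between the genes was not tested. Chka (ENSMUSG00000024843, chr19:3851773-3894369) was at 55.5, 53.1 and 53.3 CPM in normal, 55.8, 77.5 and 65.0 in model, 51.9, 84.5 and 88.1 in QJSB, and 128, 104 and 132 in leucogen. The 3 leucogen libraries lay above all 9 others. Leucogen against model gave a log2 fold change of 0.88 ± 0.17 (SE), with an adjusted p of 0.00767, and leucogen against normal one of 1.19 ± 0.11 (adjusted p = 1.3e-05). Model differed from normal by 0.30 ± 0.15 (adjusted p = 0.141), and QJSB from model by 0.16 ± 0.23 (95% interval -0.36 to 0.69). In QJSB against leucogen Chka was lower, with a log2 difference of -0.72 ± 0.22 (adjusted p = 0.0384), and was the 1 gene of 9 called in a comparison where 24.6% of all genes were. That call was lost without any 1 of QJSB 1, QJSB 2, leucogen 1, leucogen 2 or leucogen 3 and with limma on FPKM, and the log2 difference lay between -0.86 and -0.52 over the 16 alternatives.

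Chkb, the other kinase (ENSMUSG00000022617), stayed between 26.5 and 46.3 CPM in all 12 libraries. No comparison called it, and the largest of its log2 differences was 0.37 ± 0.16 in leucogen against model (95% interval 0.01 to 0.73, adjusted p = 0.111), where the leucogen libraries, at 34.9 to 42.1 CPM, all lay above the model libraries, at 26.5 to 34.4 CPM. Chka made up 46.2% ± 1.31 (SD, n = 3) of the summed FPKM of the kinases in normal, 54.3% ± 4.61 in model, 50.6% ± 3.82 in QJSB and 62.9% ± 1.37 in leucogen. The share in each leucogen library, 61.6% to 64.3%, exceeded that in every other library. The file places Chkb at chr15:89416405-89429908, a span that takes in the neighbour Cpt1b on the same strand, which was counted in its own row at 9 to 109 reads, so reads may have been divided between them in a way that the sources used here do not give.

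Chka and Lpcat2 were among the genes highest in leucogen, Phospho1 fell most in model, and Pcyt1a was the 1 gene of the 9 whose QJSB and model libraries did not overlap. The 250 bases before the start sites of these 4 genes are shown 5′ to 3′, to compare the base composition and short motifs of their promoters. They come from RefSeq on build GRCm38.p6, which holds 14 such windows for the 9 genes and 32851 in all. Capitals mark the GC box GGGCGG or CCGCCC, the E-box CACGTG, and the GATA motif AGATAA or TTATCT, each searched on both strands.
Phospho1, chr11:95824250-95824499, plus strand: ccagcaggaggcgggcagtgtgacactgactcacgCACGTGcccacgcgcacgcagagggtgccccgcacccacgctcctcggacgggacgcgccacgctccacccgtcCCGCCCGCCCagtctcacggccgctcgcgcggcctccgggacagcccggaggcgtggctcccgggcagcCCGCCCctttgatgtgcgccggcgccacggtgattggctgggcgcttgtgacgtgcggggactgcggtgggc
Pcyt1a, chr16:32430671-32430920, plus strand: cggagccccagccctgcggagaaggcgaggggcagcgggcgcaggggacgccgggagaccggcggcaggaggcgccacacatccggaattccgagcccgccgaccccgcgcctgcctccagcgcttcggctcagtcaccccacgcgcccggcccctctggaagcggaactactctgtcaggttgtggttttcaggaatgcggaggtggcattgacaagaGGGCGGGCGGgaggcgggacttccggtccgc
Chka, chr19:3851523-3851772, plus strand: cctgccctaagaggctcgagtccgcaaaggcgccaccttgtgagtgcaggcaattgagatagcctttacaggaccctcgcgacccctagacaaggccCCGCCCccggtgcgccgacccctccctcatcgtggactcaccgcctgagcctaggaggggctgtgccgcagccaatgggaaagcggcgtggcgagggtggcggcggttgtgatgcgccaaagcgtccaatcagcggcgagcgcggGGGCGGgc
Lpcat2, chr8:92855083-92855332, plus strand: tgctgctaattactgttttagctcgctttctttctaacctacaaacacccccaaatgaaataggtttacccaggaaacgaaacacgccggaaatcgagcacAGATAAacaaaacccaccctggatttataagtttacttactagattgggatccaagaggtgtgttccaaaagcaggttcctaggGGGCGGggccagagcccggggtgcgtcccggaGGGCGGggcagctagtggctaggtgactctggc
GC content was 75.6% before Phospho1, 71.6% before Pcyt1a, 68.0% before Chka and 51.2% before Lpcat2, where the median of all windows was 52.4%. A GC box was in all 4 windows shown, as in 32.7% of all windows. Pcyt1a has 3 windows, of which the most upstream is shown, and that with the start site farthest downstream holds no GC box and 14 CpG at a GC content of 64%. The windows shown for Phospho1 and Pcyt1a hold overlapping copies of it. The E-box was in the window of Phospho1 and the GATA motif in that of Lpcat2, as in 6.02% and 9.99% of all windows. The GC box was missing from both windows of Pemt, which have 1 and 2 CpG, against 34 before Phospho1 and a median of 6. It was also missing from the most downstream window of Cept1. The GATA motif was not particular to Lpcat2, since the Pemt window with 1 CpG holds 2 copies. These matches describe letters in the windows and were not tested for binding.

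Pcyt1a, whose enzyme makes CDP-choline and sets the rate of the route, was called in no comparison. Pcyt1a (ENSMUSG00000005615, chr16:32430921-32475070) was at 133, 122 and 67.4 CPM in normal, 41.6, 37.4 and 97.9 in model, 119, 143 and 114 in QJSB, and 89.5, 110 and 43.7 in leucogen. The QJSB libraries lay above all model libraries, as 9.80% of all genes did in one or the other direction, while normal 3, model 3 and leucogen 3 were each far from the other libraries of their group. QJSB against model gave a log2 fold change of 1.07 ± 0.35 (95% interval 0.26 to 1.88). Its unadjusted p was 0.0158 and its adjusted p 0.767 by edgeR, so it passed the cutoff of the study's methods, an unadjusted p under 0.05 with the same fold change, and not the adjusted cutoff. By the study's cutoff 2 of 9 genes passed, Pcyt1a and Phospho1, where 3.08% of all genes did, and both had been picked by the study from these libraries.

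In each of the 16 alternatives Pcyt1a stayed past the study's cutoff in QJSB against model, with an unadjusted p of up to 0.0486 by edgeR (without model 2), and in none was it called by the adjusted cutoff. Without model 3 the difference of Pcyt1a between QJSB and model was 1.65 ± 0.18. Without both model 1 and QJSB 1, a choice made after seeing the data, it was 0.89 ± 0.44 with an unadjusted p of 0.0857, past the study's cutoff no longer. Model against normal gave -0.86 ± 0.43 (adjusted p = 0.158), and the call was made by DESeq2 (adjusted p = 0.0492) and without model 3 (-1.44, adjusted p = 0.0129). Leucogen differed from model by 0.47 ± 0.47 (95% interval -0.67 to 1.60) and QJSB from normal by 0.23 ± 0.25 (95% interval -0.34 to 0.80). By RT-qPCR the paper reports Pcyt1a and Phospho1 as significantly lower in model than in normal and significantly raised by QJSB. Its methods name the same mice for sequencing and RT-qPCR. The primers that the study used for Pcyt1a by RT-qPCR are shown because they tell which end of the transcript that assay reads.
Pcyt1a forward: ttgacttcgctagtcggtg
Pcyt1a reverse: taactcaactcctccaggc
On GENCODE M21 (GRCm38) the forward primer lies at chr16:32430962-32430980 in exon 1. The reverse primer spans the junction from chr16:32431016-32431031 in exon 1 to chr16:32451705-32451707 in exon 2, giving a product of 73 bases in the 5′ untranslated part of the coding transcripts it matched, Pcyt1a-201 and Pcyt1a-203.

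The paralogue Pcyt1b, from the list of other genes of the pathway, encodes the beta form of the same enzyme. It was at 43.2, 42.1 and 46.1 CPM in normal and at 5.02, 2.55 and 2.25 in model. It fell by 3.73 on the log2 scale (SE 0.29, adjusted p = 5.1e-05) and was at 5.53, 3.42 and 2.74 CPM in QJSB and 2.22, 1.16 and 1.25 in leucogen. Pcyt1a therefore made up 47.9% ± 10.1 (SD, n = 3) of the summed FPKM of both genes in normal, 85.3% ± 9.06 in model, 92.6% ± 2.81 in QJSB and 94.8% ± 2.23 in leucogen. Their sum was 15 ± 1.97 FPKM in normal, 4.96 ± 2.15 in model, 9.35 ± 0.987 in QJSB and 5.66 ± 2.30 in leucogen. In the sum, QJSB lay above every model and leucogen library and below every normal library, a description that was not tested.

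**Figure D3:**
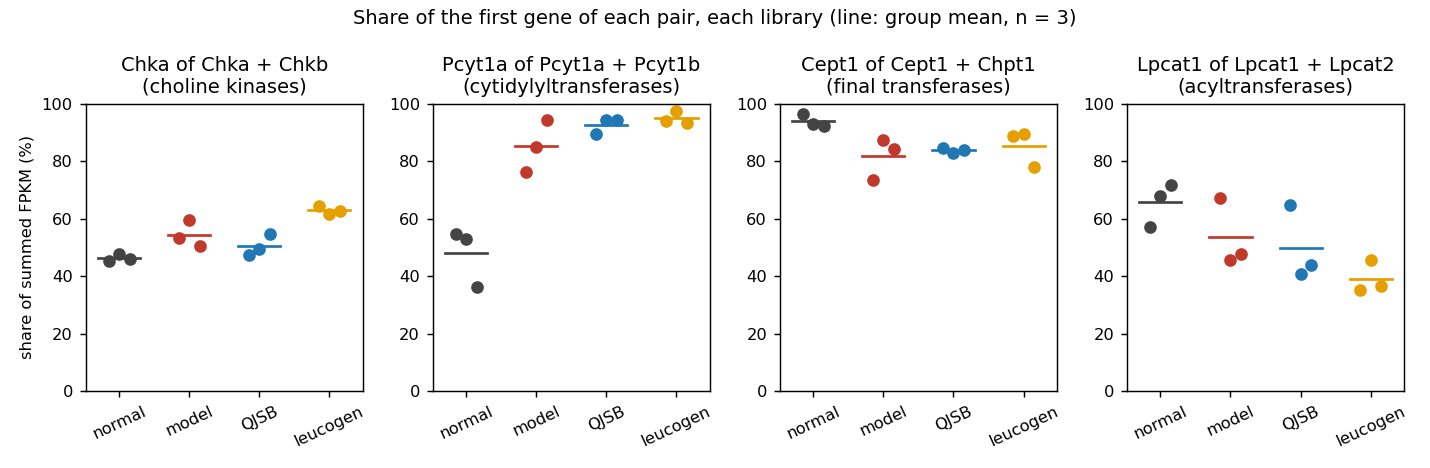
Share of the summed FPKM (y axis, percent) that the former gene of each pair held in each library, by group, with lines at the mean of 3. Pcyt1a held 36.2% to 54.5% in normal and 76.3% to 97.4% in all 9 other libraries, and Chka held 61.6% to 64.3% in leucogen.

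The final transferases join CDP-choline to diacylglycerol, and Chpt1 rose with cyclophosphamide in all 3 groups while Cept1 was called in none. Chpt1 (ENSMUSG00000060002, chr10:88452745-88504073) was at 8.05, 15.9 and 14.6 CPM in normal, 29.6, 34.8 and 29.3 in model, 25.5, 33.3 and 34.9 in QJSB, and 39.6, 33.1 and 45.8 in leucogen. Every library given cyclophosphamide lay above every normal library. The log2 fold change against normal was 1.29 ± 0.25 in model (adjusted p = 0.00378), 1.29 ± 0.26 in QJSB (adjusted p = 0.00593) and 1.64 ± 0.25 in leucogen (adjusted p = 0.00104), and each stayed called in all 16 alternatives. Between QJSB and model the difference was -0.02 ± 0.19 (95% interval -0.44 to 0.41), and between leucogen and model 0.35 ± 0.17 (adjusted p = 0.154).

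Cept1 (ENSMUSG00000040774, chr3:106502260-106547802), which also makes phosphatidylethanolamine, was at 77.3 to 98.2 CPM in normal, 36.5, 107 and 68.5 in model, 62.0 to 81.0 in QJSB and 136, 123 and 72.3 in leucogen. Its model libraries alone spanned the whole range of QJSB and normal. The interval of QJSB against model, -0.79 to 0.79, and that of leucogen against model, -0.30 to 1.61, were wide. QJSB against leucogen gave -0.65 ± 0.23 with an adjusted p of 0.0662, and it was called by DESeq2 (adjusted p = 0.0343) and without leucogen 3 (-0.87, adjusted p = 0.0303). Cept1 held 93.9% ± 2.24 (SD, n = 3) of the FPKM of both transferases in normal and 81.7% ± 7.19 in model, 83.8% ± 0.923 in QJSB and 85.4% ± 6.29 in leucogen, lower in each of the 9 libraries given cyclophosphamide than in any normal library. The ends of Cept1 overlap Dennd2d and Dram2 on the opposite strand, which had 1044 to 1930 and 769 to 1358 counts.

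Pemt (ENSMUSG00000000301, chr11:59970614-60046489), the enzyme of the methylation route, had 4 to 45 counts a library. It was at 1.01, 0.961 and 0.483 CPM in normal, 1.96, 1.42 and 2.60 in model, 1.99, 1.45 and 1.04 in QJSB, and 0.795, 0.943 and 0.384 in leucogen. All model libraries were above all normal and all leucogen libraries, and QJSB overlapped with model only. Pemt rose in model by 1.29 ± 0.41 against normal (adjusted p = 0.0359) and fell in leucogen against model by 1.46 on the log2 scale (SE 0.44, adjusted p = 0.0372). With the replicate number as a block these adjusted p were 0.0825 and 0.0750, DESeq2 called neither, and in leave-one-out fits they reached 0.118 without normal 3 and 0.145 without leucogen 3. A minimum of 10 counts in every library left Pemt untested, since it had as few as 7 counts in normal and 4 in leucogen. Of the 15 alternatives that tested it, 7 called it in model against normal and 6 in leucogen against model. The promyelocyte marker sum was also lower in every normal and leucogen library than in every model and QJSB library, and its part in these values was not tested.

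Phospho1 had the largest change of the 9 genes. Its product is a phosphatase of phosphocholine and phosphoethanolamine, known from mineralising bone and from maturing erythroid cells. Phospho1 (ENSMUSG00000050860, chr11:95824499-95832140) was at 11.5, 10.7 and 10.2 CPM in normal, 1.56, 1.92 and 2.08 in model, 1.66, 5.96 and 5.12 in QJSB, and 5.40, 4.79 and 7.58 in leucogen, from 148 to 159 counts in normal and 27 to 36 in model. The normal libraries lay above all 9 others, the leucogen libraries lay between model and normal without overlap, and QJSB 1 was at the level of model while QJSB 2 and 3 were at that of leucogen.

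Phospho1 fell in model by 2.54 on the log2 scale (SE 0.22, adjusted p = 7.6e-05). In leucogen it was higher than in model by 1.68 ± 0.30 (adjusted p = 0.00633) and lower than in normal by a log2 difference of -0.85 ± 0.20 (adjusted p = 0.00517). QJSB differed from model by 1.18 ± 0.47 (unadjusted p = 0.0352, adjusted p = 0.767) and from normal by -1.34 ± 0.41 (adjusted p = 0.0312). Without QJSB 1 the difference of QJSB from model was 1.56 ± 0.34 and without QJSB 2 it was 0.86 ± 0.52. In that comparison it was past the study's cutoff without QJSB 1 and not without any of model 1, model 2, model 3, QJSB 2 or QJSB 3. The call against normal was lost without normal 1, normal 2, normal 3 or QJSB 3 (adjusted p up to 0.0886), and the leucogen call against normal in the fit of all 12 libraries (adjusted p = 0.0736). QJSB and leucogen did not separate, with a difference of -0.50 ± 0.45 (95% interval -1.52 to 0.52).

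Erythroid markers moved with Phospho1 between normal and model, since all 7 that were tested fell, with a median log2 fold change of -5.54. This was not particular to them. All 7 B cell markers fell (median -5.31), as did 4 of 5 eosinophil, 4 of 8 late neutrophil and 2 of 5 tested osteoblast markers. Of 8 macrophage markers 3 fell and 1 rose, 0 of 6 megakaryocyte markers were called, and all 5 promyelocyte markers rose. The erythroid markers did not move with Phospho1 between leucogen and model, where 0 of 7 were called and their median was -0.91 while Phospho1 rose. Late neutrophil markers did, since 5 of 8 were higher in leucogen than in model, with a median log2 difference of 2.07. Among the libraries given cyclophosphamide, the 3 model libraries and QJSB 1 had late neutrophil sums of 1994 to 6191 CPM with Phospho1 at 1.56 to 2.08 CPM, and the other 5 had sums of 12200 to 18220 CPM with Phospho1 at 4.79 to 7.58 CPM. Normal had sums of 9908 to 10440 CPM with Phospho1 at 10.2 to 11.5 CPM. The osteoblast sum was 165 to 201 CPM in normal, lowest in leucogen, 94.6 to 106 CPM, and highest in model 1 and QJSB 1. Against normal, 4 of 5 tested osteoblast markers were lower in leucogen and 0 of 5 in QJSB, with 0 higher in either. The part of these cell types in the level of Phospho1 was not tested. The gene lies within Zfp652 on the same strand, which had 1762 to 3399 counts and differed by -0.29 between model and normal (adjusted p = 0.0679), and the program and strand setting of the counting are not given in the sources used here. The study's primers for Phospho1 are shown for the same reason as those for Pcyt1a.
Phospho1 forward: gatgcctatctagggacgg
Phospho1 reverse: cgatggtctcatcgaagtc
The forward primer spans the junction of exons 2 and 3 of Phospho1-201, from chr11:95828762-95828775 to chr11:95830551-95830555, and the reverse primer lies in exon 3 at chr11:95830599-95830617, both in coding sequence, with a product of 81 bases.

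The acyltransferases, which add a new acyl chain to lysophosphatidylcholine, were called in opposite directions in leucogen against normal, where the Lpcat2 call was fragile, and the difference between the genes was not tested. Lpcat1 (ENSMUSG00000021608, chr13:73467197-73516422), best known for the surfactant lipid of the lung, was at 87.4, 128 and 167 CPM in normal, 54.2, 52.0 and 61.4 in model, 70.6, 69.2 and 60.5 in QJSB, and 50.8, 80.3 and 56.7 in leucogen. No library given cyclophosphamide reached the lowest normal library. Lpcat1 fell in model by 1.18 on the log2 scale (SE 0.22, adjusted p = 0.00309), and was lower than in normal by -0.92 ± 0.22 in QJSB (adjusted p = 0.0121) and by -1.01 ± 0.28 in leucogen (adjusted p = 0.0268). The last of these calls was lost without a filter on low counts (adjusted p = 0.0581) and without normal 2, leucogen 1 or leucogen 3. The drug groups differed from model by 0.24 ± 0.16 (QJSB) and 0.17 ± 0.18 (leucogen), neither called.

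Lpcat2 (ENSMUSG00000033192, chr8:92855350-92919279), the acyltransferase that can make platelet activating factor in inflammatory cells, was at 44.9, 41.2 and 44.8 CPM in normal, 18.0, 42.1 and 45.9 in model, 26.3, 68.7 and 53.3 in QJSB, and 64.2, 65.1 and 67.1 in leucogen. Leucogen was tight and lay above all normal and model libraries, while model 1 and QJSB 1 were far below the other libraries of their groups. It rose in leucogen against normal by 0.61 ± 0.09 (adjusted p = 3.3e-04), just past the fold cutoff, and this call held in 7 of 16 alternatives, with an adjusted p of 0.207 in the fit of all 12 libraries. Leucogen against model gave 0.90 ± 0.31 with an adjusted p of 0.0659, and the call was made in 3 of 16 alternatives. QJSB against model gave 0.47 ± 0.43 (adjusted p = 0.816). QJSB was higher in 3 of 3 same-numbered pairs, which the labels do not link, and the blocked fit, which assumes that pairing, gave 0.47 ± 0.19 (unadjusted p = 0.0272, adjusted p = 0.477). Lpcat1 made up 65.6% ± 7.62 (SD, n = 3) of the summed FPKM of this pair in normal, 53.6% ± 11.9 in model, 49.7% ± 13.1 in QJSB and 39.1% ± 5.74 in leucogen, and the leucogen libraries, 35.1% to 45.7%, lay below all normal libraries.

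Late neutrophil markers moved with Lpcat2 and Chka in part. Of 8 such markers, 5 were higher in leucogen than in model and 0 lower, by a median log2 difference of 2.07, and 5 were higher than in normal. The sum of these markers was lowest in model 1 and QJSB 1, which also had the lowest Lpcat2 of all 12 libraries. For Chka, the normal libraries at 53.1 to 55.5 CPM had marker sums of 9910 to 10400 CPM, above those of every model library, whose Chka was 55.8 to 77.5 CPM. The part of neutrophil content in either gene was not tested.

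**Figure D4:**
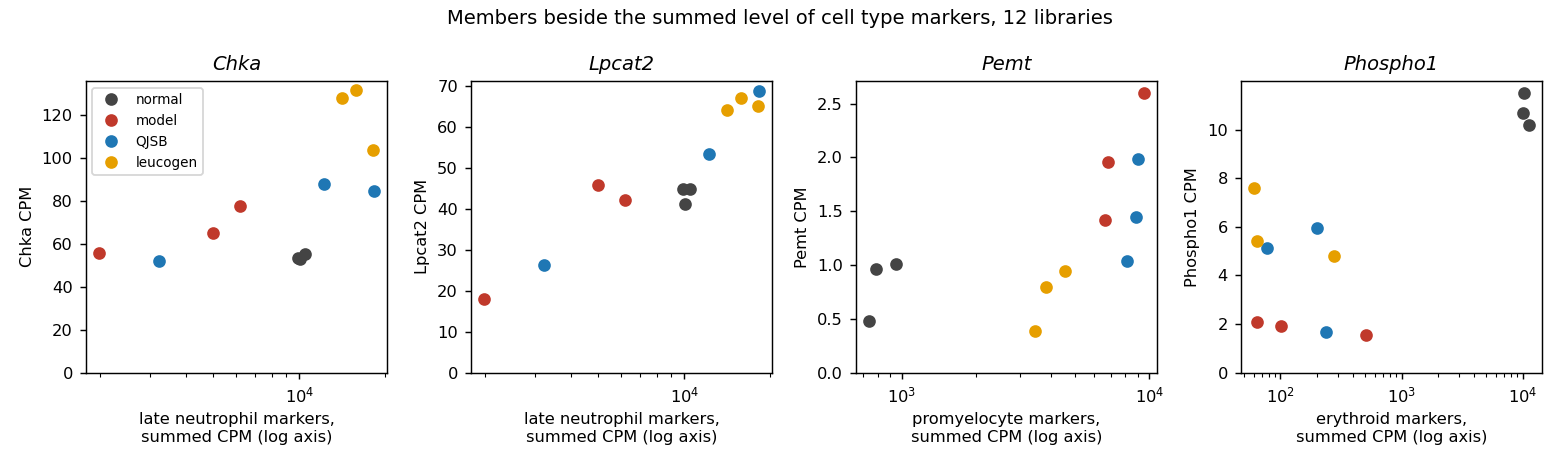
CPM of Chka, Lpcat2, Pemt and Phospho1 (y axes, from 0) against the summed CPM of the markers of a cell type (x axes, log scale) in the 12 libraries, coloured by group. Model 1 and QJSB 1 have the lowest late neutrophil sums (1994 and 3238 CPM) and the lowest Lpcat2, and the 9 libraries given cyclophosphamide have erythroid sums of 60.9 to 510 CPM with Phospho1 between 1.56 and 7.58 CPM.

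Against normal, the drug groups gave 3 calls among the 9 genes for QJSB, where 37.9% of all genes were called, and 5 for leucogen, where 37.7% were. Chpt1, Phospho1 and Lpcat1 were called in both, in the same direction as in model. Chka and Lpcat2 were called in leucogen only in the main fit, and of these Chka alone was called in the direct test between the drugs. In QJSB against normal Chka was at 0.48 ± 0.20 (adjusted p = 0.0793 by edgeR). Without QJSB 1 it was called there too (0.69 ± 0.09, adjusted p = 4.4e-04 by edgeR), which was the case in 1 of 16 alternatives. Groups that did not overlap were found for 5 of 9 genes in model against normal (55.5% of all genes), 1 of 9 in QJSB against model (9.80%), 5 of 9 in leucogen against model (46.0%), 4 of 9 in QJSB against normal (58.0%), 5 of 9 in leucogen against normal (61.8%) and 3 of 9 in QJSB against leucogen (48.8%).

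The wider pathway was described with a list of 39 further genes of choline and ethanolamine use, phosphatidylcholine breakdown and transfer, of which 38 were in the table. In model against normal 19 of the 33 that were tested were called, 10 higher and 9 lower, where 35.1% of all genes were called, and the median log2 fold change was 0.27 against 0.02 for all genes. The 3 largest rises were Slc44a4, a choline transporter-like protein (3.50 ± 0.51, at 2 to 5 counts a library in normal), Sgms2, which makes sphingomyelin from phosphatidylcholine (1.58 ± 0.21), and Pctp, a phosphatidylcholine transfer protein (1.27 ± 0.40). The 3 largest falls were Mboat2, another lysophospholipid acyltransferase (-5.32 ± 0.40), Pcyt1b (-3.73 ± 0.29) and Ptdss2, a phosphatidylserine synthase (-2.95 ± 0.16). Mboat2 was at 51.6, 52.5 and 57.7 CPM in normal and at 2.43, 0.851 and 0.693 in model. Ptdss2 was at 104, 105 and 125 CPM in normal and 16.1, 12.2 and 14.5 in model.

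By role, 5 of 11 breakdown genes were called in model, near the 35.1% of all genes, with 4 higher and 1 lower. The higher ones were the phospholipases Pla2g4a (0.87 ± 0.16), Pla2g6 (0.73 ± 0.19) and Pla2g15 (0.95 ± 0.16) and the lysophospholipase Lypla1 (0.63 ± 0.15), and the lower one was the glycerophosphocholine diesterase Gpcpd1 (-2.44 ± 0.21). The sphingomyelin synthases went opposite ways, since Sgms1 fell from 148 to 37.9 CPM (-1.96 ± 0.23) where Sgms2 rose from 106 to 316 CPM. Of the other acyltransferases Lpcat3 (-0.82 ± 0.16) and Mboat2 fell and Lpcat4 rose (0.69 ± 0.17). Of the 3 choline transporters tested Slc44a1 fell (-1.35 ± 0.21) and Slc44a4 rose.

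Leucogen against model called 5 of 31 of these genes, 3 higher and 2 lower, where 23.1% of all genes were called, with a median of -0.07 against -0.05 for all genes, and with total counts in place of TMM factors 3 were higher and 5 lower. Pld1, a phospholipase D that releases choline, was at 41.6, 75.5 and 65.7 CPM in model and 140, 159 and 158 in leucogen, and rose by 1.33 ± 0.21 (adjusted p = 0.00423). The receptor for platelet activating factor, Ptafr, rose by 0.84 ± 0.20, and Gpcpd1 by 0.80 ± 0.20. Pla2g7, the hydrolase that inactivates platelet activating factor, went from 134, 162 and 71.1 CPM in model to 37.4, 38.4 and 49.1 in leucogen and fell by 1.55 on the log2 scale (SE 0.29, adjusted p = 0.00905). The count was 2 without leucogen 3 and 9 without model 2.

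QJSB against model called 0 of 33 of these genes, and in this fit without the block 0 of 33 had an unadjusted p under 0.05, with a median of 0.09 against -0.02 for all genes. The blocked fit called 0 of 33, and 2 passed an unadjusted p of 0.05, Ptafr and Sgms2, named after their values were seen. Ptafr was at 0.46 ± 0.19 and Sgms2 at 0.44 ± 0.19, each with an adjusted p of 0.483 by edgeR. QJSB against leucogen called 12 of 31, 9 higher and 3 lower in QJSB, where 24.6% of all genes were called. The higher ones were led by Pcyt1b (1.31 ± 0.40), Pla2g7 (1.16 ± 0.15) and Slc44a4 (1.05 ± 0.32), and the lower ones were Pld1 (-0.91 ± 0.26), Gpcpd1 (-0.87 ± 0.19) and Pla2g4a (-0.76 ± 0.13). That count was 3 without leucogen 3, 4 without leucogen 1 and 7 without QJSB 2. Against normal the list had 21 of 33 called in QJSB, 13 higher and 8 lower, where 37.9% of all genes were, and 20 of 32 in leucogen, 9 higher and 11 lower, where 37.7% were. Slc44a4 (3.82 ± 0.41), Sgms2 (2.04 ± 0.20) and Pctp (1.38 ± 0.33) led the rises in QJSB, and Slc44a4 (2.76 ± 0.48), Pld1 (1.92 ± 0.10) and Sgms2 (1.41 ± 0.11) those in leucogen. Mboat2, Pcyt1b and Ptdss2 led the falls in both, at -5.46 ± 0.43, -3.47 ± 0.26 and -2.97 ± 0.18 in QJSB and -6.59 ± 0.18, -4.79 ± 0.21 and -3.66 ± 0.12 in leucogen. Mboat2 had 41, 15 and 8 counts in QJSB and 7, 9 and 4 in leucogen. The filter on low counts left it untested in leucogen against model and in QJSB against leucogen. Slc44a4 had 5, 2 and 3 counts in normal. The changes of these genes against normal therefore rest on few reads in the lower group.

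**Figure D5:**
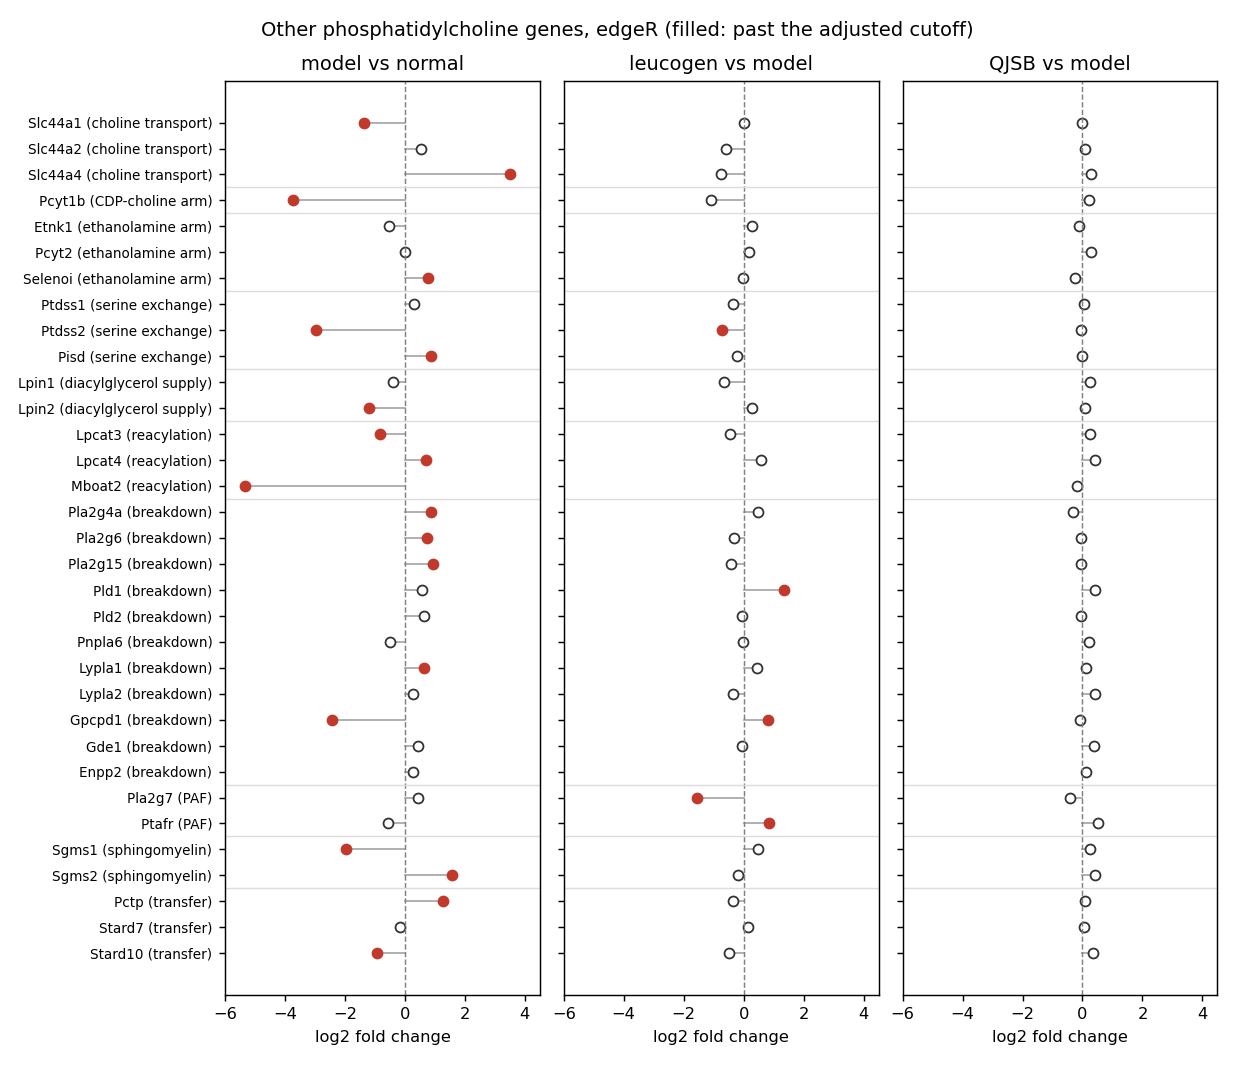
Log2 fold change (x axis) of the other phosphatidylcholine genes that were tested, grouped by role, in model against normal, leucogen against model and QJSB against model. Filled points passed the adjusted cutoff: 19 in the left panel, 5 in the middle panel and 0 in the right panel.

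The genes most like each member across the 12 libraries were found by Pearson's r of log2 CPM over 10025 other named genes with a mean of at least 5 CPM. For Phospho1 these were Nudt4 (0.988), Hipk1 (0.975) and Adam19 (0.971), for Chka Tnfaip8 (0.989), Rsu1 (0.986) and Pdss2 (0.981), and for Lpcat2 Lcn2 (0.983), Inhba (0.978) and Mmp25 (0.974). Lcn2 is also among the late neutrophil markers listed here. Chpt1 was most like Vapb (0.976) and Lpcat1 most like Afmid (0.953). Pemt followed Impdh2 at 0.945, Chkb followed Gpatch2l at 0.930, and Pcyt1a and Cept1 had no gene above 0.864 (Susd6) and 0.852 (Xlr4b). These values describe 12 libraries of 4 groups, so a shared difference between groups raises them. Among the 9 libraries given cyclophosphamide, the member pairs with an absolute r of at least 0.87 were as follows. Between Chka and Phospho1 r was 0.88, between Chka and Chpt1 0.92, between Chkb and Phospho1 0.89, between Phospho1 and Lpcat2 0.87, and between Pemt and both Chka and Chpt1 -0.90. These libraries also come from different groups, so the same limit holds. Over all 12 libraries r between Chka and Phospho1 was 0.12.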

How the data were processed

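RNA of femoral bone marrow cells from 12 mice was sequenced by the authors as strand-specific libraries without ribosomal RNA, filtered with Seqtk and mapped with HISAT2 to mm10. The program that counted reads per gene and its strand setting are not given in the sources used here. The deposited counts are whole numbers without normalization, and the deposited FPKM values were computed by the authors from mapped fragments, transcript length and total fragments. Of the sample columns 0 were left unused.

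Counts of the 2 groups compared were fitted with edgeR 4.0.16 in R 4.3.3 (TMM, filterByExpr, robust glmQLFit and glmQLFTest), with p adjusted by Benjamini-Hochberg over all genes tested. This was kept as the main test for counts where the study used DESeq2, which is an alternative here. Calls needed an absolute log2 fold change over the study's cutoff and an adjusted p under 0.05. Standard errors are the log2 fold change divided by the root of F, and intervals are 95%. CPM used TMM factors of all 12 libraries, and its log2 a prior count of 2. The fits were also run on counts simulated for QJSB against model alone, drawn independently for each library. That simulation held no outlying or paired libraries, so it cannot vouch for the block or for the other comparisons. Alternatives were DESeq2 1.42.0, DESeq2 size factors, total counts, no filter, a minimum of 10 counts per library, a joint fit of the 12 libraries, a block for the replicate number, limma 3.58.1 on log2(FPKM + 0.1) or log2(FPKM + 1) at a minimum mean FPKM of 0.1, the former also without that minimum, and each library left out.

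The members, the other pathway genes and the marker lists were chosen with earlier results of these data known. The 3 largest rises and falls among called genes of the other list were named for each comparison, and other genes named by role were chosen after their values were seen. The labels give no batch. They also link no mouse of a group to one of another. Deviations of same-numbered QJSB and model libraries from their group means correlated at 0.426, 0.123 and 0.107 over 15310 genes. By that measure alone the block was read as a pairing in this comparison. The main fit used no block and treated these libraries as unpaired. No other comparison had all 3 correlations above 0.1. Deviations cancel out within a group, so the 3 correlations are not separate evidence. The largest was that of model 1 and QJSB 1, which stood apart from their groups. The pairing therefore remains an assumption. Of the markers Ahsp, and of the other pathway genes Flvcr1, were not matched. Every pair of mice in a group differed by more than the counting error.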

Additional observations from a re-analysis of the deposited data

Results flagged for a closer look

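Chka differed between the drugs by the direct test, with a log2 difference of -0.72 between QJSB and leucogen (adjusted p = 0.0384, from edgeR), lower in 3 of 3 QJSB libraries than in any leucogen library. In that comparison 24.6% of all genes tested were called, and for 48.8% the groups did not overlap. Chka was called in leucogen against model and not in QJSB against model, and its call between the drugs held in 8 of 16 alternatives, with an adjusted p between 0.0134 and 0.127.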

How the results depend on the processing

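The calls of Chka in leucogen against model and normal, of Chpt1 in the 3 groups against normal, of Phospho1 in model against normal and leucogen against model, and of Lpcat1 in model and QJSB against normal held in all 16 alternatives. Over single genes 785 values kept their direction and side of the cutoff, 42 lost a call, 8 gained one and 33 changed sign. Total counts moved the median of all genes to 0.14 in model against normal, -0.22 in leucogen against model, 0.12 in QJSB against leucogen and -0.10 in QJSB against model. Pemt had 4 to 45 counts a library, and the part of depth in its lost calls was not tested.

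In QJSB against model the members past the study's cutoff were 1 with each limma setting, 1 to 2 with each library left out (1 without model 1, model 2, model 3, QJSB 2 or QJSB 3), and 1 without both model 1 and QJSB 1, chosen after seeing the data. Where 1 passed it was Pcyt1a, except without both model 1 and QJSB 1, where it was Phospho1 (1.44 ± 0.39, unadjusted p = 0.00298 by edgeR). With the replicate number as a block the members past the study's cutoff were Pcyt1a (1.21, unadjusted p = 0.00616 by edgeR) and Phospho1 (1.03, unadjusted p = 0.0185), and the block changed no member's call in that pairing. Of the 9 members, those with an unadjusted p under 0.05 went from 2 to 3 with the block, and of the 14486 genes tested from 723 to 1434. Members called in leucogen against normal were 3 without a filter and in the joint fit, and 3 to 5 with each library left out (3 without normal 2 or leucogen 3). Members called in QJSB against leucogen were 2 with DESeq2, 0 with each limma setting, and 0 to 1 with each library left out. The other pathway genes called in leucogen against model were 8 with total counts and with limma on log2(FPKM + 0.1), and 2 to 9 with each library left out (3 without model 1, leucogen 1 or leucogen 2). In QJSB against leucogen they were 3 to 10 with each library left out.

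Values near 0 changed sign. Cept1 in QJSB against model was 0.01 with DESeq2 and with its size factors, 0.0046 without a filter, 0.02 in the joint fit, 0.12 with the block, 0.04, 0.03 and 0.04 with limma, and -0.31 to 0.43 with each library left out. Chkb in QJSB against leucogen was 0.07 with total counts, 0.01 without a filter, 0.02 in the joint fit, 0.06, 0.05 and 0.06 with limma, and -0.13 to 0.13 with each library left out. Lpcat1 in leucogen against model was -0.0033 with total counts, -0.02 with each limma setting, and -0.04 to 0.31 with each library left out. Chpt1 in QJSB against model was 0.06 without both model 1 and QJSB 1. With each library left out, Lpcat2 in model against normal was -0.53 to 0.03, Chpt1 in QJSB against model -0.10 to 0.11, Pcyt1a in QJSB against normal -0.02 to 0.41, Lpcat2 in QJSB against normal -0.12 to 0.49, Pemt in leucogen against normal -0.43 to 0.10, and Lpcat1 in QJSB against leucogen -0.06 to 0.29. Apart from fits with fewer libraries, the cause was not tested.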
